A study of Homo sapiens with 3 samples.

Results

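A group of human mRNAs whose 5′UTRs carried many ribosomes was examined in HEK293T cells, a line derived from human embryonic kidney that carries the SV40 large T antigen. Ribosome-protected fragments (RPFs, the pieces of mRNA that a ribosome shields from nuclease) had been sequenced from 2 untreated libraries, Untreated A and Untreated B, and from 1 library, G418 A, made from cells kept in 500 µg/mL G418 for 24 hours. G418, an aminoglycoside, acts on the decoding centre of the ribosome and makes it less accurate. All 3 libraries came from the same line, and untreated cells received no drug. With a single G418 library, nothing measures how much that group would vary. Of 8 genes chosen to mark this line, PAX2 was not listed in all 3 libraries and 7 were (VIM, KRT8, KRT18, NEFL, NEFM, EYA1 and LHX1). Of 6 markers of blood, liver, endothelium and fibroblasts, only the collagen gene COL1A1 was listed, at a CDS density of 7.98, 10.7 and 8.61 RPKM in Untreated A, Untreated B and G418 A, where the intermediate filament gene VIM had 2151, 2163 and 1710.

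The tables list a single transcript per gene, and 8812 transcripts were listed in all 3 libraries. A transcript was taken when it had at least 20 CDS reads in each library, at least 20 5′UTR reads in both untreated libraries, and a ratio of 5′UTR to CDS reads of at least 0.1 in both untreated libraries. This rule took 476 transcripts. Of these, 31 had a listed 5′UTR length between -5 and -1 nt, and the reads listed for their 5′UTR equalled or exceeded those of the CDS and 3′UTR together, with a median quotient of 1.02 in Untreated A. Such values do not describe a 5′UTR, and these 31 were left out. The remaining 445 transcripts are called high-occupancy 5′UTRs. Beside them stand 432 other transcripts that met the same minimum of reads but not the ratio, and 7521 that met the CDS minimum and were not in the group. Because the untreated ratios chose the group, those ratios are given as a description and were not tested.

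A ribosome that enters an mRNA at its cap scans the 5′UTR for a start codon. Where it meets an ATG before the main one, it can translate a short upstream open reading frame (uORF), and many then dissociate before reaching the main CDS. uORFs are best known from stress response mRNAs such as ATF4, from enzymes of polyamine synthesis such as AMD1, and from mRNAs that encode a small protein upstream of the main one. Fragments can also lie in a 5′UTR because translation starts at a codon other than ATG, or because another isoform of the gene, or another gene, reads that stretch as CDS.

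The upstream frames below are short ones of genes described later, shown so that their size can be seen beside their read counts. They were read from the hg38 genome with exons of GENCODE version 44, on the transcript that the tables list. Capitals mark the upstream start codon and the stop codon in its frame.
ATF4, chr22:39520586-39520591, plus strand, exon 2 of 4: ATGTAG
ATF4, chr22:39520648-39520659, plus strand, exon 2 of 4: ATGgcgtatTAG
AMD1, chr6:110874796-110874816, plus strand, exon 1 of 9: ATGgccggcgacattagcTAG
CDK4, chr12:57752234-57752245, minus strand, exon 1 of 8: ATGgggccgTAG
RHEB, chr7:151519525-151519545, minus strand, exon 1 of 8: ATGtggttgggccggggcTGA
B4GALT3, chr1:161176440-161176463, minus strand, exon 2 of 8: ATGatccctaagaagacagctTGA
ZNF414, chr19:8514134-8514148, minus strand, exon 1 of 8: ATGgcgctgacgTGA
MOSPD1, chrX:134899508-134899525, minus strand, exon 2 of 5: ATGctttggagttttTAA
Each of these lies wholly inside the 5′UTR. The RHEB frame ended 13 nt before the main start codon, and the AMD1 frame 289 nt before it. The tables give no position of reads within a 5′UTR, so no read can be assigned to a given frame.

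Most high-occupancy 5′UTRs contained an upstream ATG. Of 369 that could be matched to an annotated transcript model, 317 (85.9%) had at least 1, against 175 of 363 (48.2%) among the others with the same reads and 2447 of 6404 (38.2%) among the remaining transcripts with the CDS minimum. A complete uORF inside the 5′UTR was present in 308 (83.5%), 163 (44.9%) and 2007 (31.3%), respectively. An upstream frame running past the main start codon was present in 93 (25.2%), 37 (10.2%) and 854 (13.3%). The 5′UTRs of the group were also longer, with a median of 391 nt against 200 nt and 129 nt, and had a lower GC content, with medians of 59.2%, 61.5% and 67.7%. They were spliced more often, with 66.7% of 5′UTRs spread over more than 1 exon, against 48.8% and 33.7%. The rule compares total reads and not densities, so at equal density a longer 5′UTR passes it more easily. The greater length is thus not independent of the choice.

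Length alone raises the chance of an ATG, so the shares were also read at like length. Among 5′UTRs of 50 to 149 nt, 24 of 35 in the group (68.6%) held an upstream ATG, against 27 of 113 (23.9%) of the others with the same reads and 575 of 2372 (24.2%) of the remaining transcripts. From 150 to 299 nt the shares were 80.6%, 47.1% and 51.9%. From 300 nt to below 600 nt they came closer, at 88.4%, 80% and 79.6%. From 600 to 1199 nt the remaining transcripts held one in 95.9% of 170 against 93.6% of 78 in the group. Where most 5′UTRs hold at least 1 ATG, this share has little room to differ. The number of upstream ATGs per 100 nt was 0.809, 0.545 and 0.598 from 300 nt to below 600 nt. From 600 to 1199 nt it was 0.766, 0.533 and 0.704, so it stayed highest in the group. These values are a description of the 5′UTRs, and no test was made across transcripts.

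**Figure D1:**
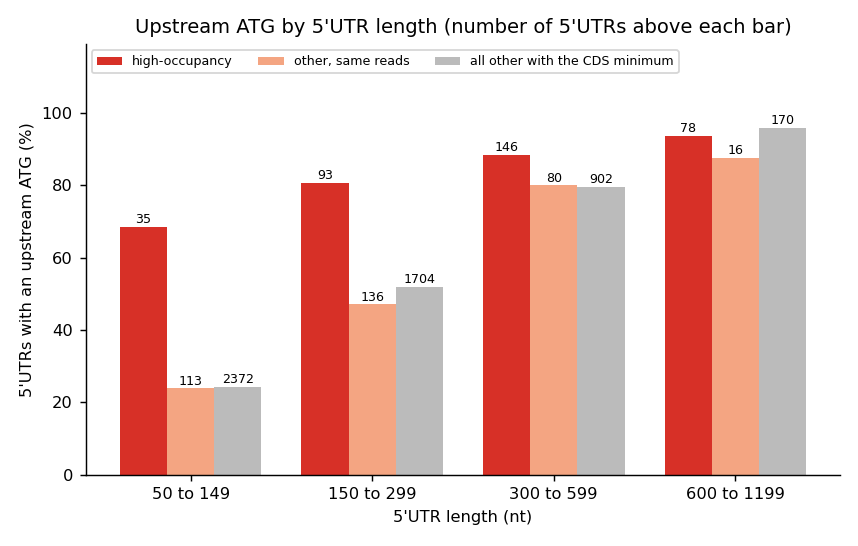
Share of 5′UTRs with at least 1 upstream ATG (vertical axis, percent) by 5′UTR length in nt (horizontal axis), for high-occupancy 5′UTRs, the others with the same reads and all other transcripts with the CDS minimum. The number above each bar is the number of 5′UTRs. The gap is widest for 50 to 149 nt (68.6% against 23.9% and 24.2%) and smallest at 600 to 1199 nt (93.6% against 87.5% and 95.9%).

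In 73 of the 369 matched members (19.8%) the 5′UTR overlapped CDS annotated for another transcript on the same strand, against 33 of 363 (9.09%) and 476 of 6404 (7.43%) in the comparison groups. The overlap covered most of the 5′UTR in 8 members. Reads on such a stretch may belong to the other reading frame, and the tables cannot separate them. Without these and without the unmatched transcripts, 296 members remained, with median ratios of 0.300 and 0.252 in the untreated libraries A and B and 0.202 in G418 A.

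Values given as a set of 3 follow the order Untreated A, Untreated B and G418 A. In untreated cells the median ratio of 5′UTR to CDS reads was 0.315 in Untreated A (quartiles 0.194 and 0.598) and 0.258 in Untreated B (quartiles 0.163 and 0.493). In G418 A, which the rule did not use for the ratio, it was 0.215 (quartiles 0.133 and 0.389). The G418 library was thus the lowest of the 3, and Untreated B lay between it and Untreated A. The 5′UTR had at least as many reads as the CDS for 50 members in Untreated A, for 41 in Untreated B and for 30 in G418 A. In G418 A, 370 of the 445 still had a ratio of at least 0.1.

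Behind these ratios stood 27756 5′UTR reads and 88449 CDS reads in Untreated A, 41913 and 149499 in Untreated B, and 30079 and 133982 in G418 A. The median member had 42, 64 and 49 5′UTR reads, so that the counting error of a single member was large. In the order A, B and G418 A, the members held 36.0%, 31.5% and 33.1% of all 5′UTR reads, but 2.31%, 2.38% and 2.76% of the CDS reads. Per nucleotide, the median density of the 5′UTR relative to that of the CDS was 0.993, 0.834 and 0.674 in the same order, against 0.217, 0.222 and 0.169 in the others with the same reads.

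**Figure D2:**
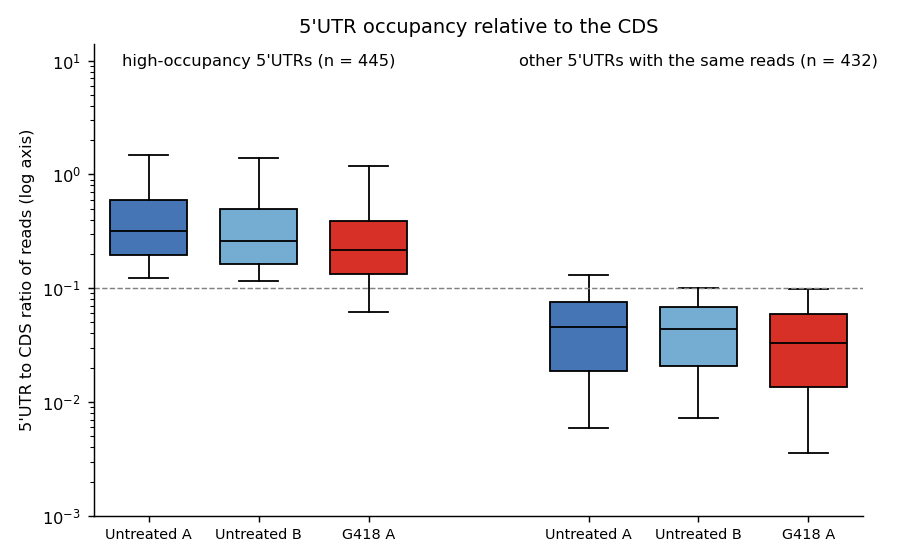
Ratio of 5′UTR to CDS reads (vertical log axis) in each library for the high-occupancy 5′UTRs and for the others with the same reads. Boxes show the quartiles, lines the median and whiskers the 5th and 95th percentiles over transcripts, and the dashed line is the threshold of 0.1. Medians of the group go from 0.315 and 0.258 in the untreated libraries to 0.215 in G418 A, and those of the others from 0.0459 and 0.0441 to 0.0329.

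The untreated libraries themselves differed. Across the 445 members the log2 ratios of Untreated A and Untreated B had a Pearson correlation of 0.85, and those of G418 A correlated with them at 0.77 in both cases. These are descriptions across transcripts that share libraries and, for the untreated pair, a common threshold. The median log2 difference of Untreated B from Untreated A was -0.20, and in Untreated B 45 members (10.1%) lay at least 2-fold below Untreated A and 11 (2.47%) at least 2-fold above it. Over all 877 transcripts with the same reads these shares were 8.21% and 3.19%.

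The typical member had a lower ratio after G418. The median log2 difference was -0.55 from Untreated A and -0.36 from Untreated B, and -0.49 from their mean, which is 1.40-fold lower. G418 A lay below both untreated libraries for 275 members, above both for 68 and between them for 102. Among all 877 transcripts with the same reads, 61.3% lay below both and 14.8% above both, so the 275 of 445 (61.8%) and the 68 (15.3%) are near the background. The 432 others had a median log2 difference of -0.45 from the untreated mean. The lower ratio in G418 A was thus seen, in direction and about in size, in 5′UTRs of low occupancy too. Both sets met the 5′UTR minimum in the untreated libraries alone, which can leave G418 A lower in each. Their likeness is therefore not independent of that choice. Relative to the median of all 877, the median of the members was -0.01.

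**Figure D3:**
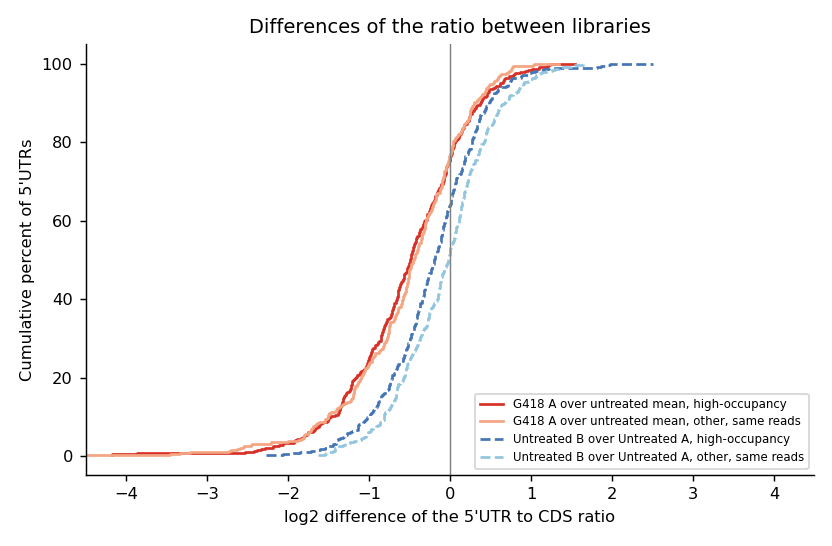
Cumulative percent of 5′UTRs (vertical axis) by log2 difference of the 5′UTR to CDS ratio (horizontal axis), for G418 A over the untreated mean and for Untreated B over Untreated A, in the group and in the others with the same reads. The G418 curves of both groups nearly coincide, with medians of -0.49 and -0.45, and lie left of the untreated pair, with medians of -0.20 and -0.02.

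The rule set a CDS minimum in all 3 libraries, but asked for 5′UTR reads and the ratio in the untreated ones alone, and a choice on high values can leave a library outside it lower. This was examined by choosing in a single untreated library and reading the ratio in the other. The 514 transcripts chosen in Untreated A had a median ratio of 0.284 there, 0.226 in Untreated B and 0.195 in G418 A, so the untreated library left out of the choice was itself lower by 0.31 on the log2 scale. From that library G418 A differed by a median log2 of -0.32. The 767 chosen in Untreated B had medians of 0.224 there, 0.212 in Untreated A and 0.171 in G418 A. Here the library left out, Untreated A, differed from the one chosen in by a median log2 of -0.09, and G418 A differed from Untreated A by -0.35. Over all 877 transcripts with the read minimum, Untreated B differed from Untreated A by a median of -0.11. G418 A was lower than the untreated library that had not been used for 65.4% and 66.4% of these transcripts. A minimum on the mean of the 3 libraries, which treats them alike, gave 1245 transcripts with a median of -0.33 from the untreated mean. Among these 1245, G418 A lay below both untreated libraries for 51.8% and above both for 20.5%. It lay at least 2-fold below both for 151 (12.1%) and at least 2-fold above both for 17 (1.37%). For the 7521 transcripts outside the group with the CDS minimum, 23.5% lay below both and 20.3% above both. No 5′UTR minimum was set there, and the median 5′UTR reads were 1, 3 and 2.

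The levels of the CDS and the 5′UTR were also read separately. The median CDS level of the members, in reads scaled to the library's total (RPM), exceeded the untreated mean by 0.31 on the log2 scale in G418 A, whereas that of the 432 others exceeded it by 0.04. The median 5′UTR level differed by -0.15 in the members and -0.38 in the others. Between the untreated libraries the members' medians differed by 0.08 in the CDS and -0.15 in the 5′UTR. The members' 5′UTR difference in G418, taken from the untreated mean, was thus about as large as that of Untreated B from Untreated A. This did not hold for the 432 others, whose untreated medians differed by -0.03 in the CDS and -0.09 in the 5′UTR. Against the untreated library left out of the choice, the median 5′UTR level in G418 A differed by -0.01 and -0.03, and the median CDS level by 0.26 and 0.36. Fewer ribosomes per mRNA and fewer mRNAs cannot be told apart in RPFs alone.

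A ratio at least 2-fold below both untreated libraries was seen for 69 of the 445 members (15.5%), and a ratio at least 2-fold above both for 5. The background over the 877 transcripts with the same reads was 15.4% below and 0.684% above. In 58 of the 69 the 5′UTR level lay below both untreated libraries while the CDS level lay above both. Among the 66 others with such a lower ratio this held for 29. The 69 and the 66 were picked by the ratio, which needs a lower 5′UTR level, a higher CDS level or both. The median CDS reads were 135 and 236 untreated in all members, against 1017 and 1584 in all 432 others. The 2 counts are therefore not a like comparison.

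A test across all 877 transcripts compared the 5′UTR to CDS ratio between the G418 library and the untreated libraries (edgeR's quasi-likelihood test on the whole-number counts, with an interaction of region and treatment). At a Benjamini-Hochberg adjusted p under 0.05 it called 21 members (4.72%), all lower in G418, and 0 higher. The background was 5.47% lower and 0% higher. Untreated values chose the members, and the 5′UTR minimum of all 877 was set on the untreated libraries alone. The members' calls, and the p-values given below for single genes, are therefore a description. At an unadjusted p under 0.05 there were 87 lower and 4 higher members, against 175 lower (20%) and 7 higher (0.798%) of all 877 transcripts. With other normalization factors, or none, the number called by edgeR was unchanged. The calls did not hold across the other settings. DESeq2 called 4 members, but it gave no adjusted p for 408 of the 877 transcripts. Among these were called members such as CCM2, ALG12, GLT8D2 and RHEB, on which it could not decide. With reads recovered from RPM, or with the minimum set on the mean of the libraries, edgeR called 0. It also called 0 without the minimum, or with the 31 transcripts of negative length. With edgeR on the recovered reads 69 members were lower and 3 higher at an unadjusted p under 0.05, against 147 (16.1%) and 5 (0.546%) of 915 transcripts. The G418 group added no estimate of spread, and in simulated data of this size the test found 30% of 4-fold and 4% of 2-fold decreases. The simulated counts shared a single spread, fitted without the interaction of region and treatment. These shares may therefore differ from those of the test on the real counts. None of the differences given below for single genes held under every setting.

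**Figure D4:**
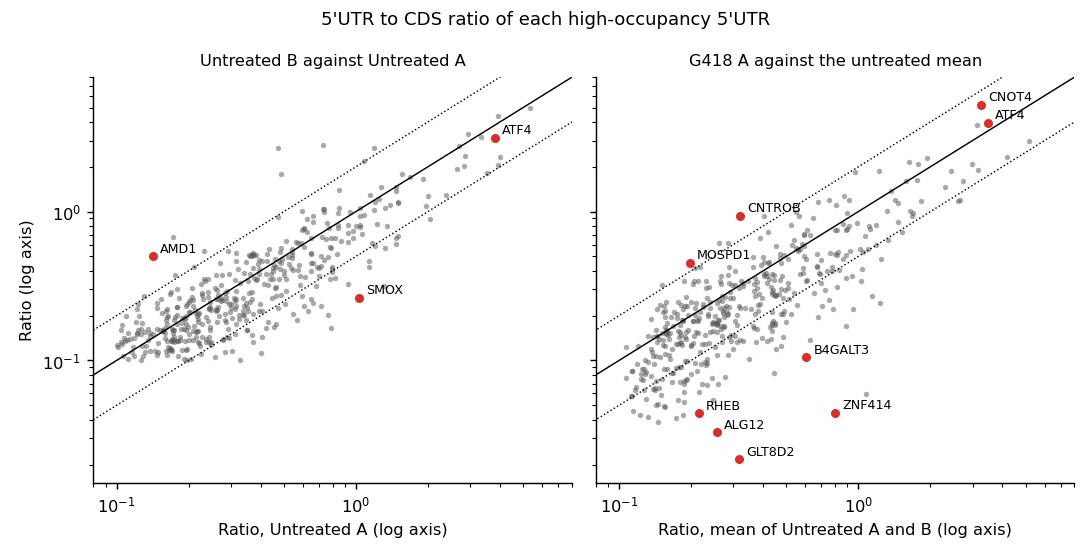
Ratio of 5′UTR to CDS reads for each of the 445 high-occupancy 5′UTRs on log axes, with Untreated B against Untreated A on the left and G418 A against the untreated mean on the right. The solid line marks equal ratios and the dotted lines a 2-fold difference. AMD1 and SMOX lie beyond 2-fold on the left, in opposite directions, and the genes with the lowest ratios in G418 A, such as GLT8D2 and ZNF414, stand well below the line on the right.

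The members with the highest untreated ratios were GPBP1L1, ZNF664, ATF4, CNOT4, CCNB1IP1, ALDH3A2, ATXN1, ZNF146, KIAA1191 and FAM217B. GPBP1L1, related to a transcription factor that binds GC-rich promoters, had 214, 244 and 192 5′UTR reads in Untreated A, Untreated B and G418 A over 40, 49 and 64 CDS reads. Its ratios of 5.35, 4.98 and 3.00 were the highest of the group in the untreated libraries. Its 5′UTR of 1222 nt holds 19 upstream ATGs, all with a stop codon inside the 5′UTR. The zinc finger genes ZNF664 and ZNF146 have 5′UTRs of 1830 and 1449 nt with 20 upstream ATGs each. ZNF664 had ratios of 3.93, 4.41 and 2.32, and ZNF146 of 2.71, 2.76 and 1.59, both lowest in G418 A. FAM217B, at 2.86, 2.37 and 1.18, and KIAA1191, at 3.52, 1.82 and 1.20, were also lowest in G418 A, the latter with untreated libraries far apart.

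CNOT4, a ubiquitin ligase associated with the CCR4-NOT deadenylase complex, had the highest ratio of the group in G418 A, at 5.21 against 3.32 and 3.16, but from 24 CDS reads. Its Wilson 95% interval in G418 A, 3.38 to 8.03, overlapped that of Untreated A, 2.13 to 5.17. Intervals here cover counting error only, and are those of the 5′UTR share of reads written as a ratio. ALDH3A2, a fatty aldehyde dehydrogenase, had ratios of 2.94, 3.32 and 3.83, but 981 of the 1147 nt of its 5′UTR were CDS in another transcript of the gene, and its 5′UTR density was 0.672, 0.759 and 0.877 of its CDS density. CCNB1IP1, a ubiquitin ligase that acts on cyclin B, had 4, 2.33 and 1.90, and ATXN1, the gene of ataxin-1, had 3.91, 2.04 and 2.07. For both genes G418 A was nearer to Untreated B than to Untreated A.

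**Figure D5:**
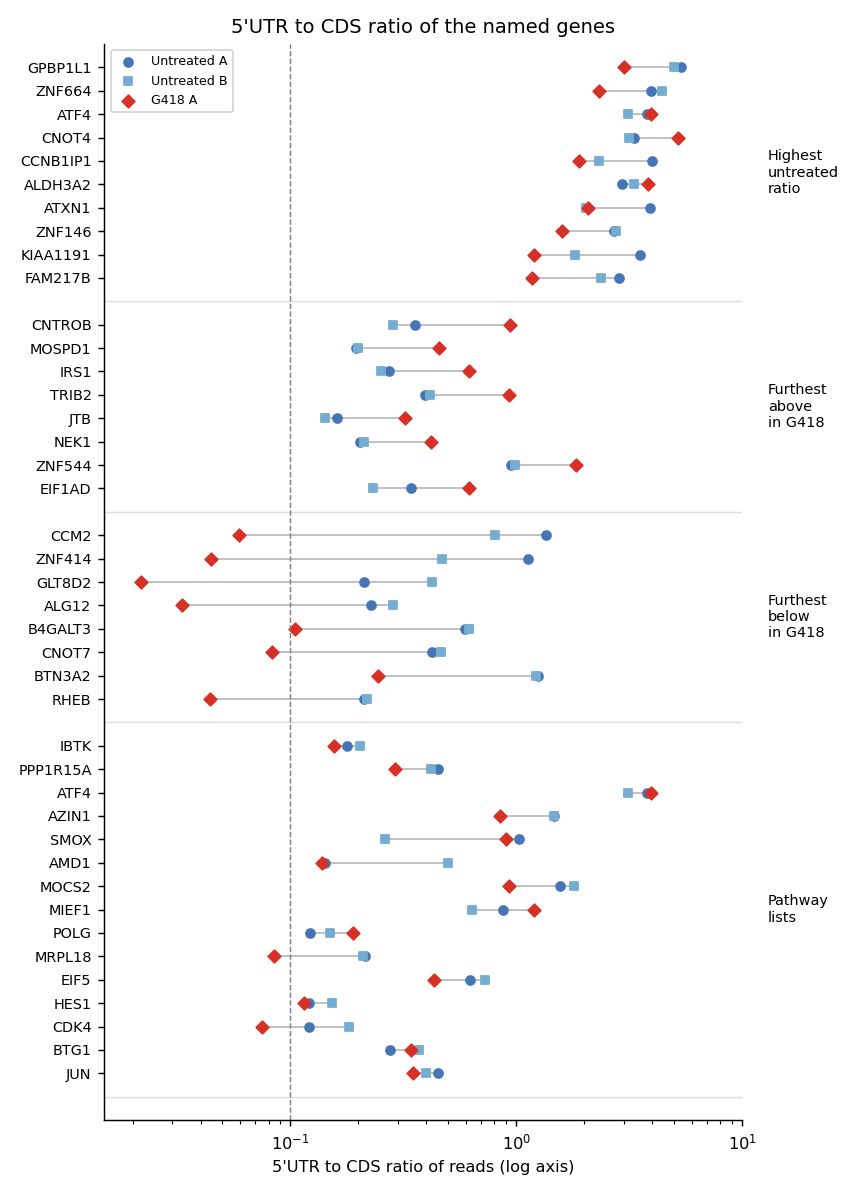
Ratio of 5′UTR to CDS reads (horizontal log axis) of the named genes in Untreated A, Untreated B and G418 A, grouped by the reason for naming them. The dashed line is the threshold of 0.1. Among the genes furthest below, the red G418 symbol lies well to the left of both untreated symbols, and for AMD1 and SMOX the untreated symbols are as far apart as the groups.

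Of 15 genes of the stress response known for uORFs, 11 were listed in all 3 libraries, 3 met the read minimum and all 3 were members. ATF4, the transcription factor at the centre of the integrated stress response, had 510, 620 and 828 5′UTR reads over 134, 198 and 209 CDS reads. Its ratios were 3.81, 3.13 and 3.96, and the G418 interval of 3.40 to 4.61 overlapped both untreated ones. The level of its 5′UTR was 87.1, 65.4 and 115 RPM and that of its CDS 22.9, 20.9 and 29.0 RPM. Both regions thus had the highest level in G418 A. The overlap of the intervals does not show that the ratio was unchanged. The ATF4 transcript listed holds 6 upstream ATGs, of which 4 open a frame closed inside the 5′UTR, the shortest being the pair printed above, and 2 open a frame that runs past the main start codon.

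PPP1R15A, the phosphatase subunit that reverses phosphorylation of eIF2α, had ratios of 0.448, 0.419 and 0.289, and IBTK, an inhibitor of Bruton's tyrosine kinase, 0.178, 0.203 and 0.156. G418 A was lowest for both, but its intervals overlapped those of both untreated libraries. DDIT3, which encodes CHOP, and UCP2, a mitochondrial carrier, had more reads in the 5′UTR than in the CDS in both untreated libraries, but too few in the CDS to enter the group. DDIT3 had 34, 94 and 62 5′UTR reads over 14, 25 and 65 CDS reads, and UCP2 39, 64 and 42 over 6, 14 and 22. BACE1, the beta-secretase, had ratios of 0.419, 0.311 and 0.182 but only 18 5′UTR reads in Untreated A.

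Of 10 genes of polyamine metabolism, 6 were listed and 3 were members, AMD1, AZIN1 and SMOX. AMD1, which makes decarboxylated S-adenosylmethionine for spermidine and spermine, had 33, 164 and 74 5′UTR reads over 233, 328 and 539 CDS reads. Its ratios were 0.142, 0.5 and 0.137, so that G418 A matched Untreated A and the untreated libraries differed 1.82 on the log2 scale. The interval in Untreated B, 0.415 to 0.603, lay apart from 0.0986 to 0.204 in Untreated A. Its only upstream ATG is that of the 21-nt frame printed above. SMOX, the spermine oxidase, differed in the opposite direction, with 1.03, 0.263 and 0.900, and its 5′UTR of 176 nt holds no upstream ATG. The CDS level of AMD1 was 39.8 and 34.6 RPM in the untreated libraries and 74.7 RPM in G418 A, which stood above both. Its 5′UTR level was 5.63 and 17.3 RPM untreated, with G418 A between them at 10.3 RPM. For neither gene can a change of the ratio with G418 be read, since the untreated ratios lay further apart than the groups.

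AZIN1, the antizyme inhibitor that stabilises ornithine decarboxylase, had ratios of 1.47 in both untreated libraries and 0.851 in G418 A. Its 5′UTR reads were 213, 356 and 279 and its CDS reads 145, 242 and 328. The 5′UTR level hardly differed, at 36.4, 37.6 and 38.7 RPM, while the CDS level was 24.8, 25.5 and 45.5 RPM. In AZIN1, 159 nt of the 5′UTR overlapped CDS annotated for another transcript, and reads there cannot be separated. The listed genes SMS, OAZ1 and SRM, for spermine synthase, antizyme 1 and spermidine synthase, had low ratios, with 0.0465, for SMS in Untreated B, the highest.

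Among 12 genes with a known protein or frame upstream of the main one, 5 were listed and MIEF1 and MOCS2 were members. MIEF1, a mitochondrial fission factor whose mRNA also encodes the small protein annotated as MIURF, had ratios of 0.870, 0.636 and 1.20. Its 5′UTR reads were 80, 98 and 146 over 92, 154 and 122 CDS reads, and 213 nt of its 497-nt 5′UTR are the MIURF CDS. MOCS2, which encodes both subunits of molybdopterin synthase in overlapping frames, had 1.56, 1.80 and 0.930, with 187 of 676 nt annotated as CDS. G418 A was thus highest for MIEF1 and lowest for MOCS2. For both genes the 5′UTR reads may include those of a second protein, and the tables cannot separate them. HAUS6, an augmin subunit, met the read minimum but had 0.0751, 0.0751 and 0.0606, below the threshold.

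From a list of 23 genes with other or extended starts, EIF5, MRPL18 and POLG were members among 12 listed. EIF5, the initiation factor that helps select the start codon, had 296, 536 and 308 5′UTR reads over 474, 739 and 715 CDS reads, with ratios of 0.624, 0.725 and 0.431. Of its 5′UTR, 208 nt overlapped CDS annotated for another transcript, and reads there cannot be separated. MRPL18, a protein of the large mitochondrial ribosomal subunit, had 0.214, 0.209 and 0.0848, with 95, 131 and 64 5′UTR reads. In both genes the G418 interval, 0.377 to 0.492 and 0.0657 to 0.109, lay below the untreated ones. POLG, the mitochondrial DNA polymerase, had 0.122, 0.150 and 0.189, with 55 nt of its 5′UTR within the CDS of POLGARF, and was highest in G418 A.

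Of 29 growth regulators and early response genes, 21 were listed and BTG1, CDK4, HES1 and JUN were members. CDK4, a kinase that drives entry into S phase, had 59, 152 and 99 5′UTR reads over 488, 837 and 1318 CDS reads. Its ratios were 0.121, 0.182 and 0.0751, and its CDS level was 83.3, 88.3 and 183 RPM while its 5′UTR level was 10.1, 16.0 and 13.7 RPM. JUN, a subunit of AP-1, had 0.450, 0.399 and 0.350 with 368, 494 and 332 5′UTR reads. HES1, a repressor downstream of Notch, had 0.121, 0.152 and 0.114, and BTG1, an antiproliferative protein, 0.275, 0.372 and 0.342. JUN was lowest in G418 A with an interval that overlapped that of Untreated B, HES1 matched Untreated A, and BTG1 lay between the untreated libraries. HES1 has no upstream ATG.

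Zinc finger genes of the ZNF, ZBTB and ZFP families made up 14 of the 445 members (3.15%) and 232 of the 7521 other transcripts with the CDS minimum (3.09%). G418 A was below both untreated libraries for 10 of the 14 and above both for 1, and their median log2 difference from the untreated mean was -0.69. Over all 877 transcripts with the read minimum, 61.3% lay below both and 14.8% above both, with a median of -0.48. ZNF749 had 0.173, 0.678 and 0.168, a further gene whose untreated libraries differed as AMD1 did. ZNF585A and ZNF585B, near-identical neighbours whose reads can be exchanged, had 0.843, 0.780 and 0.511 and 0.586, 0.323 and 0.277.

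The members furthest below the nearer untreated library in G418 A were CCM2, ZNF414, GLT8D2, ALG12, B4GALT3, CNOT7, BTN3A2 and RHEB. RHEB, the small GTPase that activates mTORC1, had the most CDS reads of these, with 47, 80 and 23 in the 5′UTR over 222, 365 and 520 in the CDS. Its ratios were 0.212, 0.219 and 0.0442, which is 4.87-fold lower in G418 A than the untreated mean of 0.215 ± 0.00528 (SD, n = 2). The G418 interval of 0.0292 to 0.0670 lay below both untreated ones. The edgeR log2 difference was -2.27 ± 0.51 (SE) with an adjusted p of 0.00708. It was 0.168 to 0.981 in edgeR with recovered reads, without the minimum, with the minimum on the mean, or with the negative lengths.

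B4GALT3, a galactosyltransferase of the Golgi, had 52, 89 and 17 5′UTR reads over 88, 144 and 162 CDS reads, and ratios of 0.591, 0.618 and 0.105. CNOT7, a catalytic deadenylase of the CCR4-NOT complex, had 22, 38 and 19 over 52, 82 and 229, and ratios of 0.423, 0.463 and 0.0830. The untreated values of each gene lay close together and G418 A far below. ALG12, a mannosyltransferase that builds the N-glycan precursor, had 24, 61 and 12 5′UTR reads over 106, 214 and 364 CDS reads, and ratios of 0.226, 0.285 and 0.0330. GLT8D2, a predicted glycosyltransferase, had 23, 49 and 4 over 109, 116 and 184, and BTN3A2, a butyrophilin, 35, 39 and 11 over 28, 32 and 45.

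The differences of CCM2 and ZNF414 were the largest of these 8 and rested on few reads. CCM2, a scaffold protein mutated in cerebral cavernous malformations, had 31, 37 and 6 5′UTR reads over 23, 46 and 101 CDS reads, with ratios of 1.35, 0.804 and 0.0594. ZNF414 had 26, 29 and 2 over 23, 62 and 45, with ratios of 1.13, 0.468 and 0.0444. With 2 reads the interval in G418 A ran from 0.0119 to 0.166, still below 0.302, the lower bound in Untreated B.

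The members furthest above the nearer untreated library were CNTROB, MOSPD1, IRS1, TRIB2, JTB, NEK1, ZNF544 and EIF1AD, and the first 5 were the members at least 2-fold above both untreated libraries. JTB, a transmembrane protein named for a breakpoint in a jumping translocation, had the highest number of reads in the group of 5, with 36, 56 and 137 in the 5′UTR over 225, 394 and 425 in the CDS. Its ratios were 0.160, 0.142 and 0.322, which is 2.13-fold higher in G418 A than the untreated mean of 0.151 ± 0.0126 (SD, n = 2), and its G418 interval of 0.266 to 0.391 lay above both untreated ones. The edgeR adjusted p was 0.164. IRS1, the insulin receptor substrate, had 24, 42 and 53 5′UTR reads and ratios of 0.273, 0.251 and 0.616, and TRIB2, a pseudokinase, 26, 81 and 77 and ratios of 0.394, 0.413 and 0.928. The CDS level of IRS1 was 15, 17.6 and 11.9 RPM, lowest in G418 A, and that of TRIB2 was 11.3, 20.7 and 11.5 RPM, close to Untreated A.

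CNTROB, a centriole protein, had ratios of 0.356, 0.284 and 0.936 from 21, 25 and 44 5′UTR reads, and MOSPD1, a protein of endoplasmic reticulum contacts whose only upstream frame is the 18-nt frame printed above, 0.194, 0.2 and 0.455 from 21, 29 and 40. ZNF544 had 0.946, 0.987 and 1.84, NEK1, a kinase of the DNA damage response and cilia, 0.204, 0.212 and 0.417, and EIF1AD, an eIF1A domain protein, 0.342, 0.231 and 0.614. With at least 50 5′UTR reads in both untreated libraries, 0 of 164 members lay 2-fold above both, and 32 lay 2-fold below both.

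Members with no upstream ATG (52) had median ratios of 0.210, 0.173 and 0.124, and those with 5 or more (110) had 0.378, 0.346 and 0.321. Their median log2 differences from the untreated mean were -0.76 and -0.39, with -0.52 for 1 ATG, -0.47 for 2 and -0.57 for 3 or 4, so there was no steady order between. Members with a single complete uORF were few when split by its stop codon. Where it was TAA (19) the median difference was 0.05, where it was TAG (22) it was -0.49, and where it was TGA (42) it was -0.37. Where a start codon was followed at once by a stop codon, as in ATF4, the 50 members had a median of -0.49. These classes were formed after the group was chosen, and differences between them were not tested.

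By the termination codon of the main CDS, 237 members end in TGA (53.3%), 90 in TAG (20.2%) and 118 in TAA (26.5%). The median log2 difference of the 5′UTR to CDS ratio was -0.48, -0.41 and -0.60. Readthrough of this codon was measured by the ribosome readthrough score (RRTS), the density between the normal termination codon and the next stop codon in frame over the density of the CDS. Pooled over reads, it was 2.43% and 2.49% in the untreated libraries and 26.8% in G418 A for the members, from 249, 420 and 3862 reads. For the others with the same reads it was 1.16%, 0.921% and 18.3%, and for the remaining transcripts with the CDS minimum 1.61%, 1.27% and 21.4%. The difference with G418 was therefore seen in each group of transcripts, in the opposite direction to that of the 5′UTR ratio. Per transcript the order between the groups was the opposite of the pooled one. The median RRTS in G418 A was 16.4% in the members and 20.1% in the others with the same reads, and 68.1% and 88.0% of transcripts had a value above 0. The members had fewer CDS reads there, with a median of 214 against 1269. The groups also differed in their shares of the termination codons. Whether the groups differ in readthrough was not tested.

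At the threshold, the members with the lowest qualifying ratio were PRDM4 and ZNF121, both at 0.1 in Untreated B, and CNOT9, at 0.101 in Untreated A. Just outside were TIMM10 and ARHGEF7, at 0.0989 and 0.0987 in Untreated B, and SLC20A1, at 0.0985 in Untreated A. PRDM4, a zinc finger transcription factor, had 0.329 in Untreated A and 0.343 in G418 A, so its place in the group rests on 20 reads in Untreated B. In G418 A the others lay at 0.0856 for ZNF121, 0.0574 for CNOT9, 0.0895 for TIMM10, 0.127 for ARHGEF7 and 0.0878 for SLC20A1, so the sides of the threshold were mixed.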

How the data were processed

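RPFs were measured in 3 libraries, grouped by treatment label. Per the study's methods, the authors collapsed reads by molecular identifier, aligned them with STAR to hg38 guided by GENCODE version 30, and assigned fragments of 28 to 35 nt to 1 transcript per gene. The authors deposited whole-number counts per region, RPM (reads scaled to the total of reads on transcripts), RPKM densities, and the RRTS and 3′UTR occupancy, each a ratio. The first 18 and last 15 nt of the CDS were left out by the authors, as were the 6 nt of the 5′UTR before the start codon. Multiply matching reads were kept at their primary position, so near-identical genes can exchange reads.

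Depth was 5857230, 9477972 and 7216039 reads for Untreated A, Untreated B and G418 A. Every RPM value of the 5′UTR and CDS was a whole multiple of 1 read (tolerance 0.01), and printed reads and ratios use these recovered reads. The deposited counts, used for the minima and in the main test, fell 1 short of them in the CDS of 8798 of 8812 transcripts for Untreated A, of 213 for Untreated B and of 64 for G418 A. Counts were tested with edgeR 4.0.16 and DESeq2 1.42.0. The latter gave no adjusted p for 408 of 877 transcripts. The test was checked on simulated data. 5′UTR sequences came from GENCODE version 44 models of the listed length, or longer ones cut to it (17 members). Intervals are Wilson 95% and cover counting error only. The study's methods call replicates of a treatment biological, without saying whether this covers each of these libraries.

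Genes were named by rule: the 10 highest untreated ratios, the 8 furthest above and 8 furthest below the nearer untreated library with at least 20 5′UTR reads seen or expected in G418 A, 3 on each side of the threshold, and the members of pathway lists. Results for 2 list genes are not reported here. The list genes named outside the group were chosen after their values were seen. The members, lists and tests were chosen with earlier results of these data known.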

Additional observations from a re-analysis of the deposited data

How the results depend on the processing

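The median log2 difference of the members in G418 A (-0.49 from the untreated mean) kept its sign under the 12 alternatives, of which the density per length could not move it because lengths cancel. It was -0.32 for members chosen in Untreated A and compared with Untreated B, -0.35 for the reverse, and -0.010 relative to the median of all transcripts compared. Without either untreated library it was -0.55 to -0.36. The median ratio (0.286 as the mean of the untreated libraries, 0.215 in G418 A) was 0.461 and 0.340 with a threshold of 0.20, 0.345 untreated with at least 50 5′UTR reads, 0.914 and 0.674 per length, 0.226 and 0.212 untreated when read in the library not used for the choice, and 0.171 in G418 A when chosen in Untreated B. The counts at least 2-fold above and below both untreated libraries (5 and 69) were 13 and 138 at 1.5-fold, 18 and 20 relative to the median of all transcripts, and 0 and 32 with at least 50 5′UTR reads. Without either untreated library they were 10 to 18 above and 90 to 128 below. The transcripts called lower in G418 (48 with edgeR) were 25 with DESeq2, and 0 with recovered reads, without the low count filter, with a mean of 20 5′UTR reads, or with listed lengths below 0, the last chosen after seeing the data. Other normalization factors, or none, left the edgeR number unchanged. Transcripts called higher were 0 in each fit with edgeR and DESeq2, with 7 higher at an unadjusted p under 0.05 in the edgeR fit reported and 1 in DESeq2. Estimated prior degrees of freedom were 27.3 in the edgeR fit reported and 4.56 with recovered reads. No paired analysis was possible because the groups compared share fewer than 2 replicate numbers. The tests without 1 untreated library leave 1 library a side, and no test was made. Few reads per 5′UTR (a median of 42 in Untreated A) and 1 G418 library limit all single-gene values.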
